A study of Rattus norvegicus with 25 samples.

Results

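The genes described here encode the motile cilium: the dynein arms, radial spokes, central apparatus and other proteins of its axoneme, and the transcription factors Foxj1 and Rfx3. They were chosen by gene symbol, as every gene of the count table whose symbol starts with Dnah, Dnai, Cfap or Rsph followed by a digit, together with Foxj1, Rfx3, Ccdc39, Ccdc40, Tekt1, Spag6 and Spag16. The rule found 66 of the 34322 genes listed, and all 66 passed the filter on low counts that left 21064 genes for testing. The tissue was hippocampus from male adult rats of the Sprague-Dawley stock, 6 to 7 weeks old, sequenced as 25 polyA-selected libraries. Vehicle-sham was the sham group given vehicle. Vehicle-CCI received vehicle and a controlled cortical impact (CCI), a model of traumatic brain injury in which a piston strikes the exposed cortex. TD-CCI, TCF-CCI and TNF-CCI received CCI with a thymus dosage, a thymus cytosolic factor or a thymus nuclear factor, and TNF here never means the cytokine. Each of the 5 groups held 5 libraries. Dose, time after injury and side of the brain are not given in the sources used here. No genetic change was named for any group. Whether the libraries of a group are separate animals is not stated in the labels, so p-values measure only the spread between these libraries, which may be technical.

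A motile cilium is a hair-like extension of the cell that beats. Its core, the axoneme, is a ring of paired microtubules around a central pair. Outer and inner dynein arms, which are motor complexes, make the paired microtubules slide, and radial spokes and the central apparatus regulate the beat. In the brain, motile cilia are carried mainly by the ependymal cells that line the ventricles, and the hippocampus borders the lateral ventricle. Foxj1 is the transcription factor that switches on motile cilium genes, and Rfx3 is a partner that binds a promoter element called the X-box. In these bulk libraries, fewer or more ciliated cells and less or more RNA per cell cannot be told apart.

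The members' promoters were searched for the letters that RFX factors and Foxj1 are known to recognise, and the stretches that carry RFX letters are shown here because Rfx3 is itself a member. RefSeq promoters on GRCr8 were matched by symbol for 53 of the 66 members, and the 250 bases before the start were read on both strands. The RFX core, GTTGCC or GGCAAC, stood in 19 of 53 members (35.8%), against 10.9% of tested genes with a promoter and 10.8% of all genes with one. Counted by window, since some genes have several starts, it stood in 24.7% of 97 member windows and in 9.84% of windows of tested genes. A whole X-box, GTTNCC and GGNAAC with 0 to 3 bases between them, stood in 2 members (3.77%) and in 0.77% of tested genes. An X-box with G at its open positions also counts as a core match. The forkhead core, TGTTTAC or GTAAACA, stood in 4 members (7.55%), against 2.56% of tested genes and 3.54% of all genes. The stretches below show 1 X-box of each of these 2 members, then the RFX cores of 2 members that passed the test described next (Dnah11 and Cfap91), of Cfap44, of Tekt1 and of Rfx3. Capitals mark the matched letters and each line reads 5′ to 3′ on the strand of the gene.
Cfap298: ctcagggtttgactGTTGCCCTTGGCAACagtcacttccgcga
Cfap20dc: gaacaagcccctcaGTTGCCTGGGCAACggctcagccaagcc
Dnah11: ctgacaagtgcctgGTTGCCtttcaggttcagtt
Cfap91: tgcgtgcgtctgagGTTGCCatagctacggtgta
Cfap44: agtggcgttgctgtGGCAACcgc
Tekt1: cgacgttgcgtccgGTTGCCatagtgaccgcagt
Rfx3: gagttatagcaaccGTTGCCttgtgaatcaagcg

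On GRCr8 these lie at chr11:43677446-43677488 (minus strand) for Cfap298, chr15:18661370-18661411 (plus) for Cfap20dc and chr6:145213750-145213783 (minus) for Dnah11. Cfap91 lies at chr11:75919122-75919155 (plus), Cfap44 at chr11:69789906-69789928 (minus), Tekt1 at chr10:57479141-57479174 (minus) and Rfx3 at chr1:235122521-235122554 (minus). The Cfap298 window held a second X-box further upstream. Dnah12, the member with the largest difference below, had neither RFX letters nor the forkhead core in its window, and the table held no promoter for Foxj1. A match is a description of letters, and no binding was measured.

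Library totals ran from 27290179 to 44899467 counts. Vehicle-sham 2 stood apart: mitochondrial ribosomal RNA took 25.6% of its counts and 17.3% in Vehicle-sham 3, against 2.18% to 10.9% in the other 23 libraries. In Vehicle-sham 2, over all tested genes, those with long summed exons were also low against the short ones. The median of the longest 25% of tested genes minus that of the shortest 25% came to -0.55, against -0.18 to 0.17 elsewhere. These are log2 values relative to each gene's mean over all libraries. Many of the results below are therefore also given without this library, and the others use all libraries unless stated. Levels are given as CPM, read counts scaled to a common library size after TMM factors, which adjust for differences in library composition.

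After CCI, motile cilium genes tended to be higher than in sham, and 3 passed the test. Over the mean of the 4 CCI groups against Vehicle-sham, Dnah12, Dnah11 and Cfap91 rose and no member fell, by edgeR's quasi-likelihood test with an adjusted p under 0.05 over all tested genes. Among all tested genes 2.24% rose and 3.68% fell in this comparison, and the 3 of 66 members (4.55%) are too few to set apart from that background. Of the 66 members, 52 had a log2 fold change above 0 (78.8%, against 51.2% of all tested genes). Their median log2 fold change was 0.40, with a range from -0.63 to 1.53, while the median over all tested genes was 0.01. An unadjusted p under 0.05 was reached by 30 members (45.5%), 26 of them higher and 4 lower, against 24.7% of all tested genes. Without Vehicle-sham 2, 52 members were still above 0 and the median was 0.54, but no member and only 14 genes in all passed. Dnah12 passed whenever any other single library was left out. Dnah11 also lost its call without any 1 of Vehicle-sham 3, Vehicle-CCI 1, Vehicle-CCI 5, TD-CCI 1, TD-CCI 3, TCF-CCI 1, TCF-CCI 3 or TNF-CCI 5. Cfap91 lost it without any 1 of these except Vehicle-CCI 5, and without Vehicle-sham 4 or 5.

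**Figure D1:**
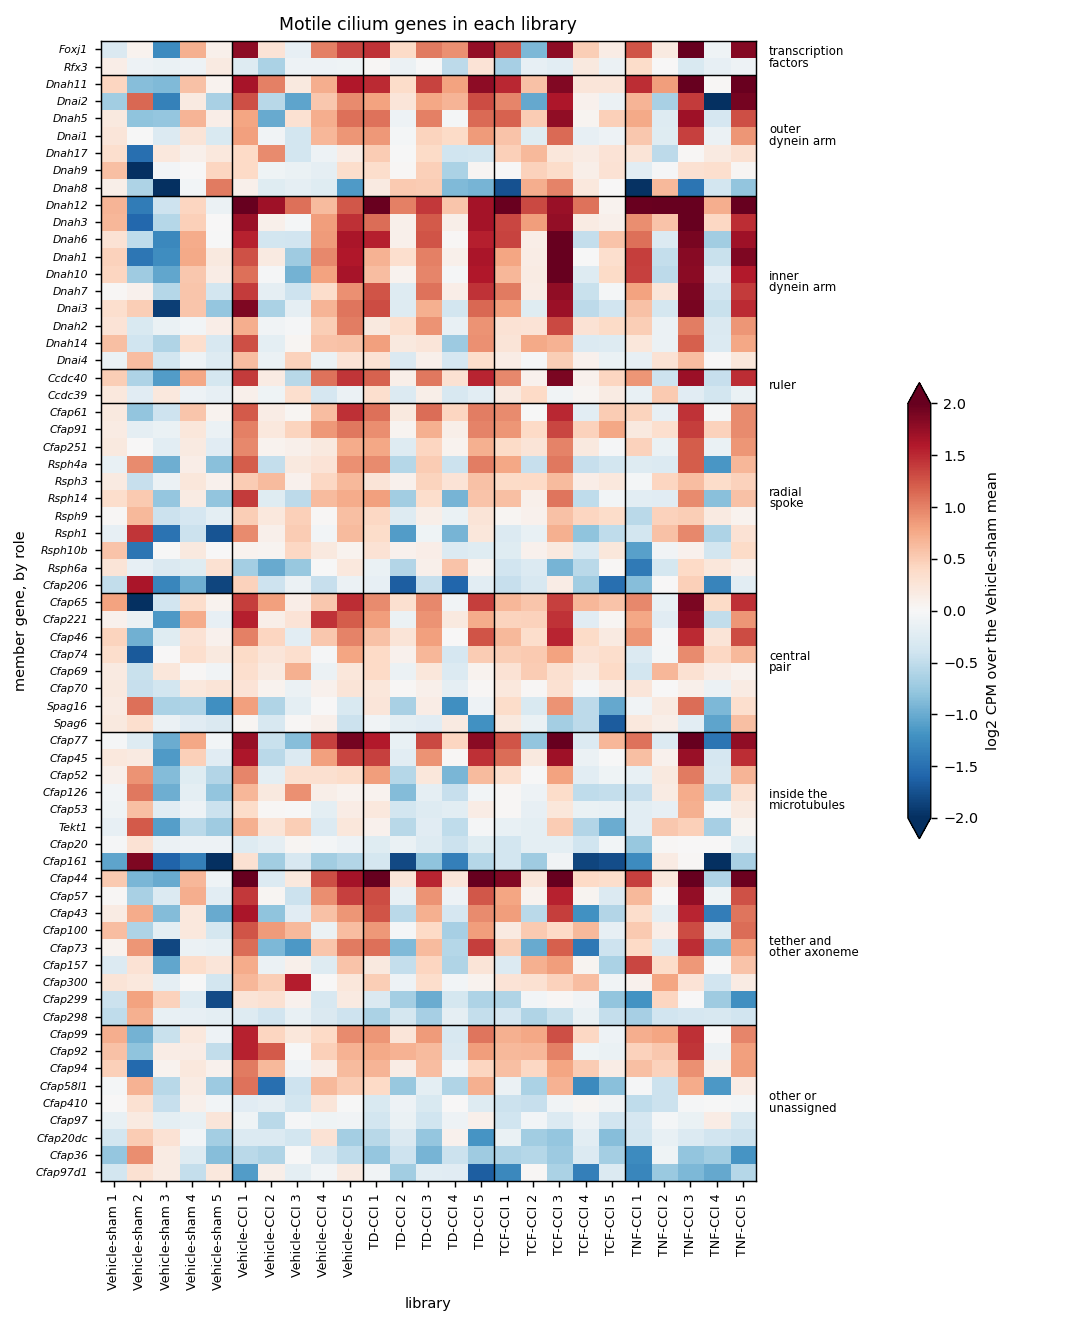
Heat map of the 66 members (rows, by role) in the 25 libraries (columns, by group), coloured by log2 of CPM plus 0.1 over the Vehicle-sham mean plus 0.1. Red columns recur in every CCI group beside pale ones, as in TNF-CCI 3 (median over members 1.15) and TNF-CCI 4 (-0.18).

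The dynein arms held the largest difference. Dnah12 encodes an inner arm heavy chain and spans chromosome 16 from 1936354 to 2092663 on mRatBN7.2, the build of the count table. Its level in Vehicle-sham libraries 1 to 5 was 52.3, 12.3, 24.4, 43.7 and 30.04 CPM. In Vehicle-CCI it was 158.6, 105.1, 69.8, 50.4 and 77.2 CPM, and in TD-CCI 127.9, 65.9, 86.7, 48.1 and 103.9 CPM. In TCF-CCI it was 128.9, 81.3, 108.1, 69.4 and 34.2 CPM, and in TNF-CCI 128.6, 137.3, 134.7, 54.0 and 136.3 CPM. Of the 20 CCI libraries, 17 exceeded every sham library, and the TNF-CCI group did not overlap sham at all. The log2 fold change over the 4 CCI groups was 1.53 ± 0.33 (SE, adjusted p = 0.0222 by edgeR), a 2.9-fold difference. Without Vehicle-sham 2 it was 1.36 ± 0.32 with an adjusted p of 0.0666 (edgeR), so the size held more than the call.

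Every other inner arm gene also had a positive log2 fold change, though none of them passed. The 10 members had a median of 0.84, from 0.17 for Dnai4 to 1.53 for Dnah12. Dnah3, a heavy chain, averaged 9.51 ± 4.94 CPM in sham (SD, n = 5) and 20.6 ± 11.7 CPM in CCI (SD, n = 20), with a log2 fold change of 1.09 ± 0.39 (adjusted p = 0.0853, edgeR). It was above every sham library in 12 of 20 CCI libraries. Dnah6 (1.04 ± 0.46), Dnah1 (0.94 ± 0.44), Dnah10 (0.87 ± 0.42) and Dnah7 (0.81 ± 0.38), also heavy chains, had log2 fold changes of similar size with adjusted p between 0.162 and 0.199 (edgeR). Dnah2, which pairs with Dnah10 in the double-headed inner arm, came to 0.52 ± 0.22. The intermediate chain Dnai4 had the highest level per length of this role, 7.67 ± 1.69 CPM per kb (SD over 25 libraries), and a log2 fold change of 0.17 ± 0.16 (adjusted p = 0.547, edgeR).

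Among the 7 outer arm members, 6 were above 0, with a median of 0.50. Dnah11 encodes a heavy chain of the proximal outer arms and spans chromosome 6 from 138839175 to 139155554. In Vehicle-sham it was 10.1, 4.09, 3.98, 11.2 and 7.86 CPM, and in Vehicle-CCI 23.6, 15.1, 8.56, 12.4 and 22.8 CPM. TD-CCI libraries had 21.2, 9.65, 19.1, 13.1 and 26.0 CPM, TCF-CCI libraries 21.4, 11.3, 27.2, 8.84 and 8.86 CPM, and TNF-CCI libraries 20.97, 13.3, 30.4, 7.601 and 29.5 CPM. The groups overlapped, with 15 of 20 CCI libraries above every sham library. Its log2 fold change was 1.22 ± 0.34 (adjusted p = 0.0390, edgeR), and 1.10 ± 0.37 without Vehicle-sham 2 (adjusted p = 0.1499, edgeR). Of its exonic bases, 3.65% are shared with Cdca7l on the opposite strand. The strand setting of the counting is not given, but Cdca7l averaged only 1.33 CPM against 15.5 CPM for Dnah11.

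Dnah9, the heavy chain of the distal outer arms, did not follow Dnah11. In sham it was 316.1, 35.7, 201.1, 209.2 and 279.9 CPM, and over the CCI libraries it ran from 133.7 through a median of 220.6 to 291.3 CPM. Vehicle-sham 2 was far below the other libraries, and no CCI library exceeded every sham library. Its log2 fold change was 0.14 ± 0.25 (adjusted p = 0.775, edgeR) and -0.11 ± 0.16 without Vehicle-sham 2. Per length it was the most abundant outer arm gene, at 11.6 ± 3.01 CPM per kb, against 0.90 ± 0.46 for Dnah11 and 1.21 ± 0.61 for Dnah5. Dnah5, the heavy chain that pairs with Dnah9 or Dnah11, had a log2 fold change of 0.76 ± 0.35 (adjusted p = 0.177, edgeR), and 11 of 20 CCI libraries were above every sham library.

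**Figure D2:**
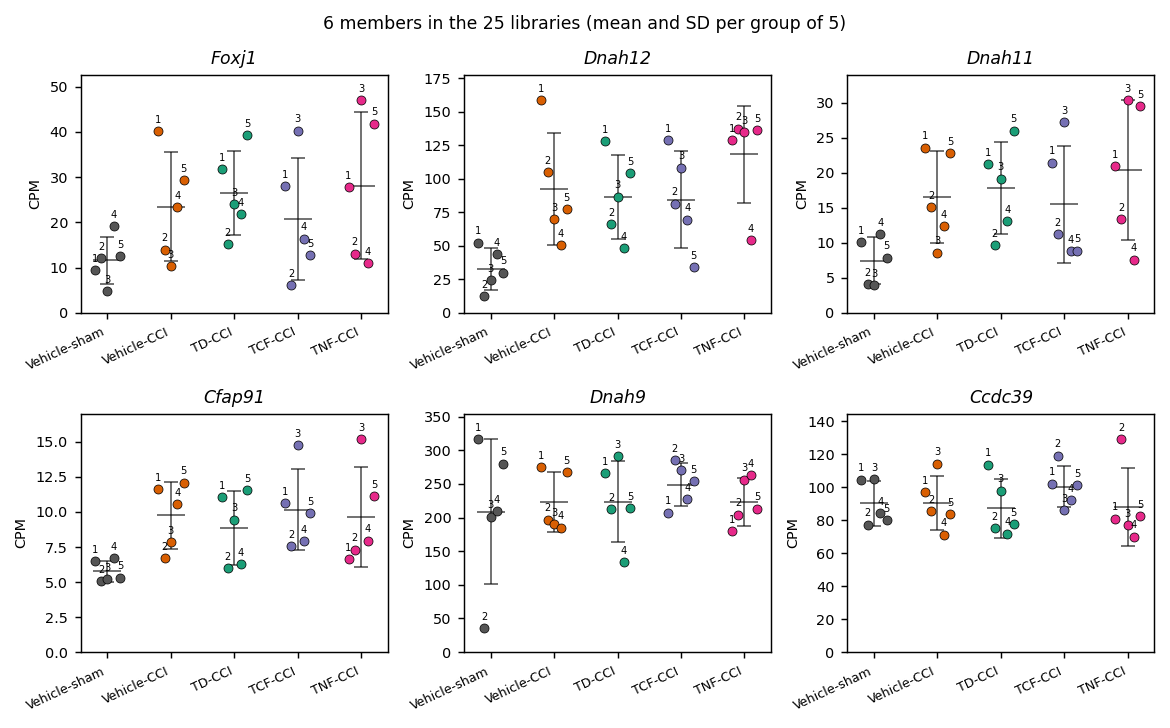
Level in CPM of 6 members in each library, with numbers beside points naming the library and black marks giving mean and SD of each group of 5. Dnah12 lies above the sham range in 17 of 20 CCI libraries and Foxj1 in 12, while all 20 lie inside the sham range for Dnah9, and for Ccdc39 4 lie above it and 5 below it.

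Foxj1 itself spans chromosome 10 from 101566299 to 101570249. Its level in Vehicle-sham was 9.49, 12.2, 4.77, 19.1 and 12.5 CPM, and in Vehicle-CCI 40.2, 14.0, 10.4, 23.3 and 29.4 CPM. TD-CCI libraries had 31.8, 15.2, 24.1, 21.8 and 39.3 CPM, TCF-CCI libraries 28.0, 6.16, 40.3, 16.4 and 12.8 CPM, and TNF-CCI libraries 27.8, 13.1, 47.1, 10.98 and 41.8 CPM. Each CCI group held libraries inside and above the sham range, and 12 of 20 exceeded every sham library. The log2 fold change was 1.08 ± 0.39, which missed the threshold (adjusted p = 0.0892, edgeR), and 1.13 ± 0.44 without Vehicle-sham 2 (adjusted p = 0.216, edgeR). Rfx3 was flat: 171.7 ± 17.8 CPM in sham (SD, n = 5) and 159.0 ± 28.7 CPM in CCI (SD, n = 20), a log2 fold change of -0.11 ± 0.13 (adjusted p = 0.621, edgeR). Per length the 2 factors were close, 9.57 ± 5.37 CPM per kb for Foxj1 and 6.88 ± 1.15 for Rfx3, while the SD between libraries was larger for Foxj1.

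The 2 ruler genes were unlike each other. Ccdc39 and Ccdc40 form the molecular ruler that sets the spacing of inner arms and spokes along the axoneme. Ccdc40 averaged 6.09 ± 3.28 CPM in sham and 11.4 ± 5.64 CPM in CCI, a log2 fold change of 0.90 ± 0.39 (adjusted p = 0.156, edgeR). Ccdc39 averaged 90.2 ± 13.4 CPM in sham and 91.4 ± 17.4 CPM in CCI, a log2 fold change of 0.02 ± 0.13 (adjusted p = 0.953, edgeR). Per length Ccdc39 lay at 21.8 ± 3.93 CPM per kb and Ccdc40 at 1.98 ± 1.07.

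Of 11 radial spoke members 9 were above 0, with a median of 0.36. Cfap91, a protein at the base of the spokes, spans chromosome 11 from 62413613 to 62457281. It was 6.48, 5.06, 5.22, 6.71 and 5.30 CPM in Vehicle-sham, the tightest sham values of the 3 called members. It was 11.7, 6.70, 7.84, 10.6 and 12.1 CPM in Vehicle-CCI, 11.1, 5.98, 9.45, 6.26 and 11.5 CPM in TD-CCI, and 10.7, 7.58, 14.8, 7.93 and 9.89 CPM in TCF-CCI. In TNF-CCI it was 6.63, 7.32, 15.2, 7.96 and 11.2 CPM. Of 20 CCI libraries 16 exceeded every sham library, among them all of TCF-CCI. The log2 fold change was 0.74 ± 0.20 (adjusted p = 0.0373, edgeR), and 0.72 ± 0.22 without Vehicle-sham 2 (adjusted p = 0.124, edgeR). Rsph3, a spoke stalk protein, came to 0.39 ± 0.13 (adjusted p = 0.0731, edgeR) with 15 of 20 CCI libraries above every sham library. Rsph10b, the most abundant spoke member per length at 19.6 ± 4.77 CPM per kb, came to 0.02 ± 0.20. Without Vehicle-sham 2 it came to -0.17 ± 0.16.

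Central apparatus members had a median of 0.31, with 7 of 8 above 0 and none called. Cfap65 (0.91 ± 0.35, adjusted p = 0.112) and Cfap46 (0.72 ± 0.27, adjusted p = 0.0945), both proteins of the central apparatus, had the smallest p by edgeR. Spag16 and Spag6, scaffold proteins of the central apparatus, were among the least abundant members, at 0.26 ± 0.14 and 0.28 ± 0.09 CPM per kb. Spag16 came to 0.06 ± 0.36 and Spag6 to -0.20 ± 0.28. Without Vehicle-sham 2 they came to 0.58 ± 0.37 and -0.07 ± 0.30. Cfap69 had the highest level per length of this role, 11.8 ± 2.30 CPM per kb, and a log2 fold change of 0.23 ± 0.14 (adjusted p = 0.321, edgeR).

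The 8 proteins that lie inside the microtubules had a median of only 0.04, against 0.66 without Vehicle-sham 2, the largest shift of any role. Tekt1, a tektin filament inside the paired microtubules, was 8.202, 21.6, 4.24, 6.29 and 5.54 CPM in sham, and from 4.58 to 15.01 CPM with a median of 8.65 in CCI. Its log2 fold change was 0.01 ± 0.27 with all libraries and 0.63 ± 0.24 without Vehicle-sham 2 (adjusted p = 0.985 and 0.204, edgeR). Cfap161 went from -0.63 to 0.98 in the same step, since its 34.0 CPM in Vehicle-sham 2 stood against 1.27 to 4.37 CPM in the other sham libraries. Cfap77 (1.18 ± 0.56) and Cfap45 (0.86 ± 0.40) were above 0 with and without that library (1.16 and 0.94 without), and neither passed. Cfap20 was the most abundant of the role, at 27.7 ± 3.69 CPM per kb, with a log2 fold change of -0.19 ± 0.10 (adjusted p = 0.253, edgeR).

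Among the 9 tether and other axonemal members the median was 0.45. Cfap44, part of the complex that tethers an inner arm motor head, was 15.6, 5.68, 5.33, 17.3 and 10.3 CPM in sham, and from 7.14 to 66.2 CPM with a median of 27.4 in CCI. Its log2 fold change of 1.39 ± 0.49 was the second largest of all members but missed the threshold (adjusted p = 0.0826, edgeR). Cfap298, a factor for assembling dynein arms before they enter the cilium, was lower in CCI at -0.39 ± 0.13 without passing (adjusted p = 0.0628, edgeR). Its sham values were 46.0, 107.3, 58.8, 58.1 and 57.1 CPM against 41.1 to 59.8 CPM in CCI, and without Vehicle-sham 2 the log2 fold change was -0.11 ± 0.10. The 9 members with another or no assigned role had a median of -0.16 with 4 above 0. Among them was Cfap94 (0.51), also known as Dnai7, a symbol listed for the inner arms. Roles were assigned by symbol, so Cfap94 was not counted with the inner arm members. Cfap36, by far the most abundant member per length at 132.1 CPM per kb, came to -0.58 ± 0.20 (adjusted p = 0.0740, edgeR) and to -0.18 ± 0.18 without Vehicle-sham 2.

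**Figure D3:**
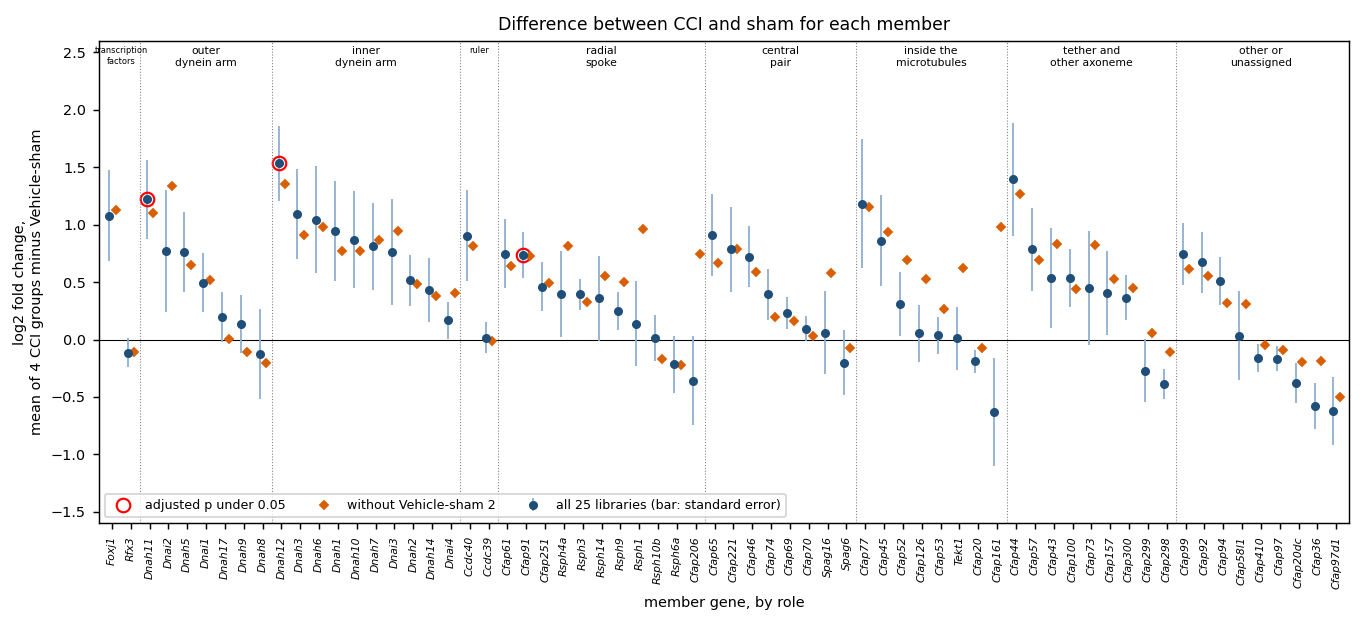
Log2 fold change of the mean of the 4 CCI groups over Vehicle-sham for each member (blue, with standard error) and the same without Vehicle-sham 2 (orange), by role, with red rings on the members that passed. Inner arm members lie above 0 throughout, while Tekt1 moves from 0.01 to 0.63 and Cfap161 from -0.63 to 0.98 between the 2 fits.

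Against sham, the longer members had the larger fold changes with all libraries, and this relation was absent without Vehicle-sham 2. Over the 66 members, Spearman's rho between summed exon length and log2 fold change was 0.37, against 0.10 over all tested genes, as a description across genes that are not independent replicates. The longer 33 members had a median log2 fold change of 0.54 and the shorter 33 a median of 0.25. Without Vehicle-sham 2 the rho was -0.00 and the medians were 0.58 and 0.53. Leaving out any other sham library gave a rho between 0.39 and 0.44. Inner arm members kept the highest median of any role without that library (0.82, all 10 above 0), and the proteins inside the microtubules came second at 0.66 with 7 of 8 above 0. Radial spokes then stood at 0.56, outer arms at 0.52 with 5 of 7 above 0, and the central apparatus at 0.39. Weighting libraries by quality in limma voom gave a rho of 0.04. The comparisons of the supplements with Vehicle-CCI hold no sham library and share Vehicle-CCI. There rho was 0.41 for TD-CCI, 0.55 for TCF-CCI and 0.38 for TNF-CCI, against 0.25, 0.26 and 0.14 over all tested genes. With the mitochondrial rRNA share as covariate, rho over members was 0.28, 0.54 and -0.255. Length thus also went with the differences between injured groups, but for TNF-CCI not with that covariate.

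**Figure D4:**
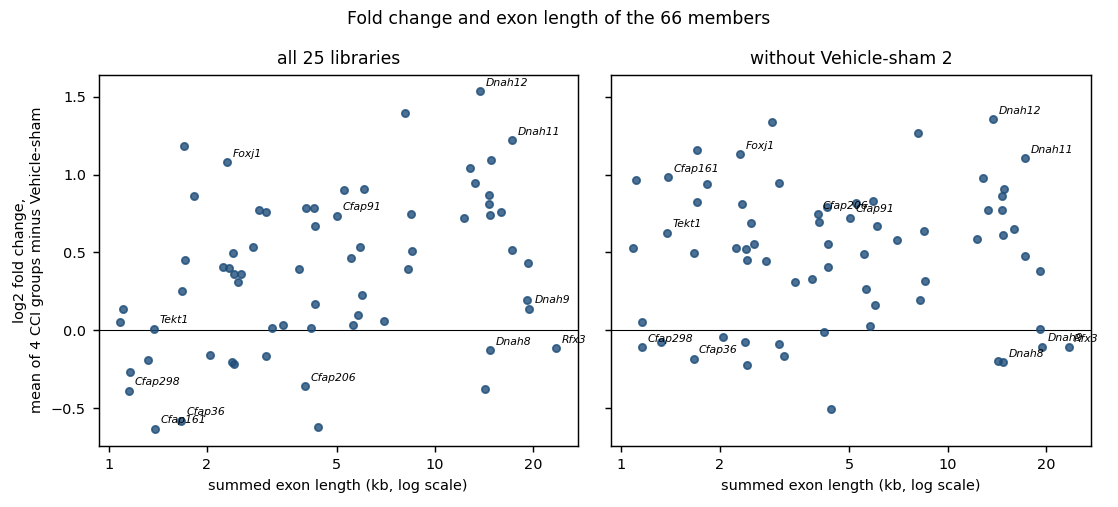
Log2 fold change of the mean of the 4 CCI groups over Vehicle-sham against summed exon length (log scale) for the 66 members, with all libraries (left) and without Vehicle-sham 2 (right). The tilt on the left, rho 0.37, is absent on the right, while most points stay above 0.

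Each CCI group was next compared with Vehicle-sham on its own. These comparisons share the same sham libraries, so their likeness is no independent result. In TNF-CCI, Dnah12 alone rose, by 1.86 ± 0.38 (adjusted p = 0.0198, edgeR), where 1.71% of all tested genes rose and 0.864% fell. Without Vehicle-sham 2 Dnah12 still passed there, at 1.68 ± 0.37 (adjusted p = 0.0282, edgeR), but it did not without Vehicle-sham 4, TNF-CCI 1 or TNF-CCI 5, each of which left no gene called in that comparison. In TNF-CCI the log2 fold change was 1.44 ± 0.40 for Dnah11 (adjusted p = 0.0535) and 0.74 ± 0.24 for Cfap91 (adjusted p = 0.0878), both by edgeR. No member passed in Vehicle-CCI, TD-CCI or TCF-CCI by edgeR, where 0% of all tested genes passed in either direction except 0.0142% that fell in TCF-CCI. There 14, 11 and 14 members had an unadjusted p under 0.05 by edgeR (21.2%, 16.7% and 21.2%). Among all tested genes the shares were 12.7%, 16.5% and 18.0%, so TD-CCI was at its background and TCF-CCI near it. DESeq2 called Dnah12 in each of the 3 groups and limma voom called no member in them. The median log2 fold change over members was 0.48 in Vehicle-CCI, 0.32 in TD-CCI, 0.34 in TCF-CCI and 0.40 in TNF-CCI.

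Few members separated fully from sham. In TNF-CCI the values of Dnah12 were all above sham and those of Cfap97d1 all below it, where 2.59% and 0.926% of all tested genes did so. In TCF-CCI Dnah2 and Cfap91 lay wholly above sham and no member wholly below, against 1.73% and 1.82% of genes. In TD-CCI Cfap20 lay wholly below sham and no member wholly above, against 0.859% and 2.36%. No member separated in Vehicle-CCI (0.465% of genes above, 0.313% below) or over all 20 CCI libraries (0.0427% above, 0.038% below). Of the 66 members, 1 or 2 in a group is a share of 1.5% to 3.0%, close to these backgrounds.

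In the authors' deposited tables, which compare each CCI group with their control, Dnah12 passed in all 4. In the authors' deposited table for Vehicle-CCI it was the only member, where 0.308% of genes with an adjusted p were higher and 0.0186% lower. In the authors' deposited table for TD-CCI, Dnah11, Foxj1 and Dnah12 were higher, where 1.97% of genes were higher and 0.372% lower. In the authors' deposited table for TCF-CCI, Cfap91 and Dnah12 were higher, against 1.13% higher and 1.11% lower. In the authors' deposited table for TNF-CCI, Dnah11 and Dnah12 were higher, against 2.72% higher and 0.812% lower. No member was called lower in any of the authors' deposited tables.

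The supplements were then compared with vehicle after the same impact, which asks whether they altered the response to injury. No member passed by edgeR, DESeq2 or limma voom for TD-CCI, TCF-CCI or TNF-CCI against Vehicle-CCI, and 0% of all tested genes passed by edgeR in either direction. By edgeR 2, 0 and 1 members had an unadjusted p under 0.05 (3.03%, 0% and 1.52%), against 1.75%, 1.44% and 3.46% of all tested genes. The median log2 difference over members was -0.14 for TD-CCI, -0.11 for TCF-CCI and -0.01 for TNF-CCI. Foxj1 differed from Vehicle-CCI by 0.17 in TD-CCI, -0.18 in TCF-CCI and 0.26 in TNF-CCI on the log2 scale. Dnah12 differed by -0.09, -0.13 and 0.36. Group means of Foxj1 were 23.5 ± 12.0 CPM in Vehicle-CCI, 26.4 ± 9.32 in TD-CCI, 20.7 ± 13.5 in TCF-CCI and 28.2 ± 16.3 in TNF-CCI (SD, n = 5 each), so the groups differed by less than the spread within them.

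The spread within groups was itself shared by many members. The median over members of log2 CPM over the sham mean was 1.15 in TNF-CCI 3, 1.08 in Vehicle-CCI 1 and 1.02 in TCF-CCI 3, while TNF-CCI 4 stood at -0.18, TD-CCI 4 at -0.12 and TCF-CCI 4 at 0.00. Sham libraries ran from -0.34 to 0.26. With group means removed, the median Pearson correlation of a member with Foxj1 was 0.52 over 65 members and 25 libraries, as a description. An r of at least 0.5 was found for 33 of 65 members (50.8%), against 5.68% of all tested genes. Without Vehicle-sham 2 the median was 0.60, with 38 members at 0.5 or above. Within the 20 CCI libraries alone the median was 0.68, with 39 members at 0.5 or above. Over all 25 libraries the closest were Cfap77 (0.93), Dnai2 (0.90), Ccdc40 (0.89) and Cfap45 (0.89), where Dnai2 is an outer arm intermediate chain. The libraries share depth and tissue composition in these correlations.

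The most abundant members per length were not among those that followed Foxj1. The 10 members with the highest level per length were Cfap36, Cfap298, Cfap20, Ccdc39, Rsph10b, Cfap410, Cfap69, Dnah9, Cfap126 and Dnai4. None of these 10 had an r of at least 0.5 with Foxj1 and 5 had an r below 0, while 33 of the other 55 members had 0.5 or more. Ccdc39 stood at -0.36, Cfap69 at -0.27, Dnah9 at 0.01 and Rfx3 at 0.01. Dnah12 was intermediate at 0.45, and 0.53 within the CCI libraries. In TNF-CCI 1, 2, 3 and 5 Dnah12 lay between 128.6 and 137.3 CPM, while Foxj1 in the same libraries ran from 13.1 to 47.1 CPM. Across the 65 members, Spearman's rho between level per length and r with Foxj1 was -0.44.

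**Figure D5:**
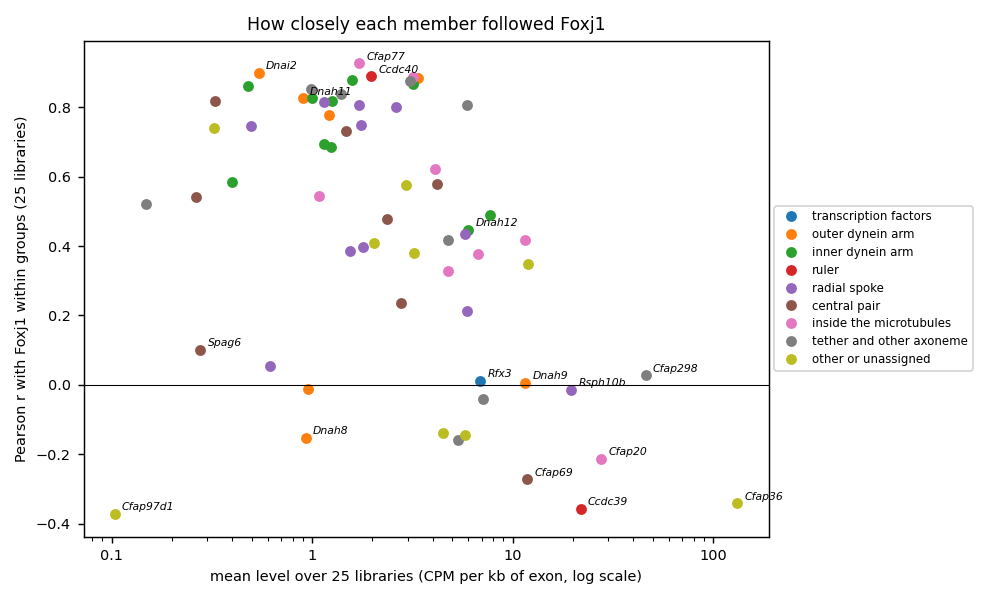
Pearson correlation of each member with Foxj1 within groups over 25 libraries against its mean level in CPM per kb of exon (log scale), coloured by role. Cfap77 and Ccdc40 lie near 0.9, and the abundant Cfap36, Ccdc39 and Dnah9 at or below 0.01.

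Other cilium genes were read from lists of related genes. Of 22 genes for dynein docking and assembly, Odad1, a docking complex subunit, rose by 1.14 ± 0.27 (adjusted p = 0.0246, edgeR) and the median was 0.41. It also rose in TNF-CCI against sham, by 1.25 (adjusted p = 0.0379, edgeR), a call lost in 6 of 10 fits that left out 1 library (Vehicle-sham 2, 3 or 4, TNF-CCI 1, 3 or 5). Of 62 other axonemal genes, Drc1, a nexin-dynein regulatory complex subunit, rose by 0.62 ± 0.16 (adjusted p = 0.0328) and Spag8 by 0.65 ± 0.19 (adjusted p = 0.0456), both by edgeR, with a median of 0.32. Dnajb13, a chaperone of the radial spoke, fell by 0.74 on the log2 scale (SE 0.12, adjusted p = 0.00670, edgeR), from 26.2 ± 3.47 CPM in sham to 15.8 ± 3.10 in CCI, and 19 of 20 CCI libraries lay below every sham library. Over the 4 CCI groups Dnajb13 passed whichever library was left out, at -0.71 without Vehicle-sham 2 (adjusted p = 0.0447, edgeR). Dnajb13 was also called lower in TCF-CCI and in TNF-CCI against sham. Those calls were lost in 9 of 10 and 5 of 10 fits that left out 1 library. Over the 4 CCI groups Odad1 lost its call without Vehicle-sham 2 (1.00, adjusted p = 0.0867, edgeR), and passed when any other single library was left out. Drc1 lost it without Vehicle-sham 2 (0.55), 3 or 4, and Spag8 in 15 of 25 such fits. The r of Dnajb13 with Foxj1 was -0.19. No gene passed among 12 regulators of multiciliated cell formation (median 0.07), 30 intraflagellar transport genes (median -0.01) or 32 primary cilium genes (median 0.13) by edgeR.

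Markers of other cells were read in the same libraries. The list of ependymal markers held 13 genes, and Tmem212, Sntn, Pifo, Fam216b and Tppp3 were also in the list of other axonemal genes. Of the 11 tested, only Pltp rose and the median was -0.09 (0.42 without Vehicle-sham 2). The summed level of all 13 ran from 607 to 1740 CPM in sham and from 715 to 1326 CPM in CCI, with the highest value in Vehicle-sham 2. Tmem212, an ependymal marker, was 10.8, 36.4, 3.27, 9.19 and 3.74 CPM in sham and 3.43 to 19.9 CPM in CCI, and its r with Foxj1 was 0.57. Of 19 choroid plexus markers none passed by edgeR. Their summed level ran from 45.6 to 158.7 CPM except in Vehicle-CCI 3 (4213), TCF-CCI 4 (757.7), Vehicle-sham 1 (453.3) and Vehicle-sham 2 (270.5), set mostly by Ttr, a transport protein of that tissue. Foxj1 in Vehicle-CCI 3 was 10.4 CPM, the lowest of its group, and r with Foxj1 was -0.07 for Ttr and 0.51 for Folr1, another choroid plexus marker. Reactive astrocyte markers rose in 8 of 15 and activated microglia markers in 10 of 18, hippocampal neuron markers fell in 2 of 17 (Camk2a and Neurod6), and 1 of 12 thalamus markers rose (Prkcd). Without Vehicle-sham 2 none of these astrocyte, neuron, thalamus or ependymal markers passed by edgeR and 1 microglia marker did (Cd63). The medians without it were 1.24 for reactive astrocytes, 1.09 for activated microglia and -0.40 for hippocampal neurons, against 1.28, 0.96 and -0.40 with it. Of 9 testis markers tested, for the other main tissue with axonemes, none passed, and the sum of all 18 listed was 16.0 to 37.1 CPM. Gfap, an astrocyte filament, had an r of 0.49 with Foxj1. The part of tissue composition in the members' differences was not tested.

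Some members are uncertain for another reason. Exons of Cfap73 overlap Ddx54 on the opposite strand over 45.3% of their bases. Overlaps of over 5% were also found for Rsph6a (10.8%), Rsph1 (9.12%) and Dnah14 (7.00%). Without a stated strand setting, reads of these genes and of their partners cannot be told apart. Cfap97d1 shares only 3.14% with Dusp3, but at 0.456 CPM against 223.5 CPM for Dusp3. Dnah12 shares no exon with another listed gene.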

How the data were processed

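The authors' deposited count table gave whole-number read counts per gene, not normalised, for 25 libraries with each gene's summed exon length. STAR, Salmon, featureCounts and DESeq2 and the build mRatBN7.2 are named without roles or versions, per the submitters' processing notes. The authors' deposited DESeq2 tables, per the file headers, gave mean normalised signal, log2 fold changes, a test score and p-values. Library groups came from the labels. The 7 genes with empty cells, none a member, were left out. Counts were fitted with edgeR 4.0.16 in R 4.3.3 (TMM, filterByExpr by group, robust quasi-likelihood, 1 mean per group, Benjamini-Hochberg over 21064 genes, threshold 0.05), which was tested on simulated data. The standard error is the log2 fold change divided by the root of F. DESeq2 1.42.0 and limma 3.58.1 were alternatives, beside other scaling, filters and covariates and each library left out. Tables and correlations used pandas 2.3.3 in Python 3.11.15. The members and gene lists were chosen with earlier results of these data known. Genes given in full were the 7 named singly by the rule, Dnah12, called members, and per role the 2 of smallest p and the 1 highest per length, and others were named after their values were seen. Depth and library totals are in the report, and intervals from counting alone were not used because the spread between libraries was larger.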

Additional observations from a re-analysis of the deposited data

Results flagged for a closer look

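Single libraries stood apart from the other 4 of their group for some of the 24 members described in full. The gap to the nearest library, over the range of the group, exceeded the 95% limit of Dixon's test (0.71 for 5 libraries) in 9 of 120 groups (7.5%), where chance gives about 1 in 20.

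Vehicle-sham 2 was the highest sham library for Cfap20 (49.5 CPM, others 37.5 to 39.6), Cfap298 (107.3 CPM, others 46.0 to 58.8), Dnai4 (46.2 CPM, others 23.1 to 27.9) and Tekt1 (21.6 CPM, others 4.24 to 8.202). Mitochondrial ribosomal RNA took 25.6% of its counts, and the part of that share in these values was not tested. Dnah12 was low in TNF-CCI 4 (54.0 CPM, others 128.6 to 137.3), the library with the lowest median over members of its group. TCF-CCI 3 was high for Cfap46 (34.6 CPM, others 13.5 to 18.7) and Cfap65 (21.5 CPM, others 12.2 to 13.3), and it also had the highest Foxj1 of its group (40.3 CPM). Cfap298 was low in TNF-CCI 1 (41.4 CPM, others 49.97 to 52.4). Ccdc39 was high in TNF-CCI 2 (129.0 CPM, others 69.9 to 82.3).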

How the results depend on the processing

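Over the 4 CCI groups against sham, 3 members were called with DESeq2 size factors, with no filter, with at least 1 CPM in 5 libraries and with a replicate block. The DESeq2 test called 12 (10 higher, 2 lower, 18.2% against 11.3% of genes). limma voom with quality weights and the mitochondrial rRNA covariate each called 1 (Dnah12, 1.52% of members against 6.16% and 3.19% of genes). Leaving out Vehicle-sham 2 and 3 together called 0 members and 0 genes. Leaving out 1 library gave 0 to 6 members. It was 0 without Vehicle-sham 2, and 6 without Vehicle-sham 1 (9.09% of members against 9.41% of genes). It was 1 without Vehicle-sham 3, Vehicle-CCI 1, TD-CCI 1, TD-CCI 3, TCF-CCI 1, TCF-CCI 3 or TNF-CCI 5 (1.52% against 2.98% to 3.68%). In TNF-CCI against sham, where 1 was called, the DESeq2 test called 4 (6.06% of members against 6.91% of genes). The replicate block called 2 (3.03% against 5.65%). The covariate called 0 (0.351% of genes), and so did the fit without Vehicle-sham 2 and 3 (0% of genes). Leaving out 1 library gave 0 to 6, with 6 without TNF-CCI 2 (9.09% against 7.35%). In Vehicle-CCI, TD-CCI and TCF-CCI against sham the DESeq2 test called 1 each (1.52% of members against 1.19%, 1.15% and 1.05% of genes). Leaving out 1 library gave 0 to 1 in Vehicle-CCI, with 1 without Vehicle-CCI 4 (1.52% against 1.73%). Under every alternative the median over members moved from its value with all libraries by less than the spread between libraries (SD 0.42). The labels do not say that a replicate number marks a shared batch, and not every same-numbered pair deviated together (correlations from -0.32 to 0.44), so the numbers were not taken as pairs. As a hint from the data and not the design, 13 of 25 libraries correlated best with their own number, and the replicate block called 1863 genes against 1248.

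Among the members described in full, signs turned for those near 0. Outside these, Cfap161 went from -0.63 to 0.98 and Cfap206 from -0.36 to 0.75 without Vehicle-sham 2, and Cfap36 from -0.58 to 0.046 without Vehicle-sham 2 and 3. Tekt1 came to -0.035 with DESeq2 size factors, -0.041 with the DESeq2 test and -0.015 with at least 1 CPM. limma voom gave Ccdc39 -0.021, Dnah9 -0.00153 and Rsph10b -0.17. The covariate gave Rsph10b -0.016, and leaving out Vehicle-sham 2 and 3 gave Dnah9 -0.21 and Rsph10b -0.24. With 1 library left out, values ran from -0.034 to 0.077 for Ccdc39, -0.11 to 0.34 for Dnah9, -0.17 to 0.20 for Rsph10b, -0.15 to 0.58 for Spag16 and -0.17 to 0.63 for Tekt1. The cause was not tested. Over all 66 members, 43 stayed above 0 and 10 below 0 whichever library was left out. With 5 libraries a group, differences smaller than the spread between libraries could not be resolved, and Cfap157, Cfap97d1 and Spag6 had as few as 2, 4 and 5 counts in a library.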
